A study of Homo sapiens with 2 samples.

Results

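The zinc finger genes of chromosome 19 were followed in SF-539 cells, a human glioblastoma cell line, with and without knockdown of FKBP9. A member was any protein-coding gene of chromosome 19 in the deposited table whose name is ZNF followed by digits. The rule took 249 of the 58735 genes in the table. The table itself assigned 239 of the 249 to the C2H2 zinc finger family, and left 10 without a family, among them ZNF414, ZNF428 and ZNF8. The names of 3 members stand for readthrough transcripts that span neighbouring genes, namely ZNF559-ZNF177, ZNF816-ZNF321P and ZNF625-ZNF20.

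FKBP9 is a peptidyl-prolyl isomerase of the endoplasmic reticulum, and the study examined which transcripts differ when it is depleted. Both groups were SF-539 cells that had been infected with a pGIPZ-based lentivirus and kept under puromycin to obtain stable clones. Cells of one group carried the control hairpin (shControl) and the other carried a hairpin against FKBP9 (shFKBP9). RNA of each group was sequenced in 1 library, so no difference between the groups has a replicate check and no test of the condition was possible. How many clones each culture held was not given in the sources used here.

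C2H2 zinc finger proteins bind DNA through tandem fingers, each of which reads a few bases. Many of those encoded on chromosome 19 also carry a KRAB domain, which recruits the scaffold protein TRIM28 and, through it, the histone H3 methyltransferase SETDB1 and HP1 proteins. This machinery silences retroelements and some imprinted or tissue-specific genes. The family has grown by tandem duplication, so that most members lie in clusters of neighbouring, related genes. Several of these genes are known to lose expression in tumours with methylation of their promoters.

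The promoters of 4 members are shown as examples of the genes described below. ZNF66 and ZNF567 belong to 2 different runs of silent members and had 0 fragments in both libraries. ZNF787 was among the highest members, and ZNF749 had the lowest ratio between the libraries. Each sequence is the 250 bases before the RefSeq start (GRCh38.p14), 5′ to 3′ on the gene's strand, with every CG dinucleotide in capitals. The windows lie at chr19:20776054-20776303 (plus strand), chr19:36687362-36687611 (plus strand), chr19:56121296-56121545 (minus strand) and chr19:57435075-57435324 (plus strand), and hold 8, 27, 27 and 15 CG dinucleotides. The 4 were chosen after their values were seen, from windows that meet no exon of a protein-coding gene. ZNF567 had the most CG of the 22 silent members with a window in its cluster, whose median was 17.5.
ZNF66: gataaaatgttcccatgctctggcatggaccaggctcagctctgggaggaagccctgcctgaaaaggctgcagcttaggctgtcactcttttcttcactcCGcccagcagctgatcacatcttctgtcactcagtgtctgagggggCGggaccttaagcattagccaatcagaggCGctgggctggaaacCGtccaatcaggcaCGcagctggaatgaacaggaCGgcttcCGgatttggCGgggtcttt
ZNF567: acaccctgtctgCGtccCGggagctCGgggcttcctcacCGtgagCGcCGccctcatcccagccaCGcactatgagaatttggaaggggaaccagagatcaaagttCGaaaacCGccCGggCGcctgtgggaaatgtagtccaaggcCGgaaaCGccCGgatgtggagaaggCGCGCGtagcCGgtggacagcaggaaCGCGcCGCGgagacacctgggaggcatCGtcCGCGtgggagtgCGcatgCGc
ZNF787: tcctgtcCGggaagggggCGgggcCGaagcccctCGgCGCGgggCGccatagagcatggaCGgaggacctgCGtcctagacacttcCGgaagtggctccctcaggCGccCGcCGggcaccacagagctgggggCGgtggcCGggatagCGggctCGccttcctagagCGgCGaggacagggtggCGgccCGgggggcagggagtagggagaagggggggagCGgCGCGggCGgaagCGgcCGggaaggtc
ZNF749: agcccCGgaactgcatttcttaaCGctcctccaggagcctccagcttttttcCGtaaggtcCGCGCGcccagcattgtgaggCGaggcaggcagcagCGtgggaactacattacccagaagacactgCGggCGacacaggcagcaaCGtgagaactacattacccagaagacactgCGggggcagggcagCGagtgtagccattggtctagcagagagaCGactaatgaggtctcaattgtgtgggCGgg

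The shControl library held 18116873 fragments on genes and the shFKBP9 library 17158514. FKBP9 (ENSG00000122642, chr7:32957404-33006931) had 4659 fragments in shControl and 415 in shFKBP9, or 49.8 and 4.68 FPKM. FPKM is the number of fragments scaled by gene length and library size. The log2 ratio (shFKBP9 over shControl), for which 0.1 was added to both FPKM values throughout, was -3.38 for FKBP9 (95% interval -3.56 to -3.27). Each interval was computed from recovered fragments by the exact Clopper-Pearson method, without an addition, and reflects counting error alone. Among the marker genes, VIM had 277 FPKM in shControl and 295 in shFKBP9, NES had 2.36 and 2.17, and the glial markers GFAP and SOX2 had 43 and 4 fragments in shControl and 29 and 7 in shFKBP9. The submitters call the cells epithelial glioma cells, but CDH1 and EPCAM, which mark epithelium, had 0 and 11 fragments in shControl and 1 and 14 in shFKBP9. CD44, a mesenchymal marker, had 48.6 and 55.6 FPKM (log2 ratio 0.19, 0.15 to 0.24), and CHI3L1 had 9.89 and 19.3 FPKM (0.96, 0.83 to 1.11). Of the 8 glioma and mesenchymal markers 4 reached 1 FPKM, and of the 7 with enough fragments 3 had an interval above 0 (VIM, CD44 and CHI3L1) and 0 had one below. Over all 17105 genes with 10 or more fragments, 13.8% of intervals lay above 0 and 16.9% below, shares not matched for fragment number. The part of these marker differences in the values of the zinc finger genes was not tested. Of the 4 epithelial markers, 1 reached 1 FPKM (KRT8, 1.28 and 1.09 FPKM), of the 3 blood and the 2 endothelial markers 0 did, and PTPRC was at 0 in both libraries. Of the 3 neuronal markers, SNAP25 alone reached 1 FPKM, with 4.98 and 5.76 FPKM.

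Much of the family was silent at this depth. In both libraries 113 of the 249 zinc finger genes (45.4%) had 0 fragments, which is called silent here, and 19 more had between 1 and 8 fragments in the libraries together. A further 41 had 10 or more fragments but stayed under 1 FPKM, and 76 (30.5%) reached 1 FPKM in at least 1 library, which is called expressed here. A count of 0 allows at most 3 fragments, which for the 113 genes corresponds to limits of 0.0117 to 0.132 FPKM in shControl and 0.0124 to 0.140 FPKM in shFKBP9. Just inside the threshold of 1 FPKM lay ZNF805 (1.03 and 0.993 FPKM) and ZNF181 (1.05 and 1.08 FPKM), and just outside it lay ZNF575 (0.977 and 0.705 FPKM) and ZNF136 (0.682 and 0.956 FPKM). In RNA from a whole culture, fewer cells with a transcript and less of it per cell cannot be told apart.

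Silence was more frequent in this family than in the genes around it. Of 265 protein-coding ZNF genes on other chromosomes, 14.7% had 0 fragments in both libraries and 57.0% were expressed. Of the 1223 other protein-coding genes of chromosome 19, 26.6% had 0 fragments and 48.1% were expressed. Over all 19951 protein-coding genes the shares were 22.8% and 51.9%. These shares describe a single cell line and were not tested.

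Most of the members' exonic sequence had no exact copy elsewhere in the genome. For each member, the exonic windows of 100 bases in GENCODE release 44 were looked up in hg38, and the share of windows that occur once in the genome was computed. Only exact matches were counted, so a window with a close but inexact copy still counts as occurring once. These exons can differ from those counted by the authors, as in ZNF737, with 8978 exonic bases against a deposited length of 3539. At least 90% of the windows occurred once for 240 of the 249 members, and for 108 of the 113 silent ones. The silent members had a median of 100% and a lowest share of 69.0%, in ZNF98. How fragments that align to several places, or that fall on 2 overlapping genes, were counted is not given in the sources used here. The span of 182 of the 249 members overlaps another gene of the table, and so does that of 91 of the 113 silent ones. Of the 182, 50% were silent, and of the 67 members that overlap no gene, 32.8% (22 genes). The parts of similar sequence and of overlap in the counts of 0 were not tested.

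The expressed members were transcribed at low levels. Together the 249 genes held 21888 fragments in shControl (0.121% of the library) and 19959 in shFKBP9 (0.116%). The 76 expressed members had a median of 1.93 FPKM in shControl and 1.97 FPKM in shFKBP9, against 3.13 and 3.15 FPKM for the expressed ZNF genes of other chromosomes and 7.37 and 7.27 FPKM for all expressed protein-coding genes. The 10 highest members held 42.6% of the family's summed FPKM in shControl and 40.8% in shFKBP9. More than 5 FPKM in both libraries was found for 13 members.

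ZNF428 was the highest member with 25.2 FPKM in shControl and 24.4 FPKM in shFKBP9 (824 and 754 fragments). ZNF787 followed with 19.3 and 14.5 FPKM, from 1286 and 911 fragments. ZNF358, which lies outside the larger clusters, had 16.9 and 15.2 FPKM. ZNF146, a protein made almost only of zinc fingers and without a KRAB domain, had 12.9 and 14.0 FPKM. These 4 genes lie in 4 different places on the chromosome. Each stood above the median of expressed protein-coding genes in both libraries.

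Ordered along the chromosome, the members fell into 20 groups when a gap of more than 500 kb between starts opened a new one. Of these, 10 clusters held 5 or more members and 235 members in all, and they are lettered A to J from the lower to the higher coordinate. The other 14 members lay singly or in groups of 2 or 3. None of these 14 was silent, 0 of 14 having 0 fragments in both libraries, and 9 of the 14 were expressed.

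**Figure D1:**
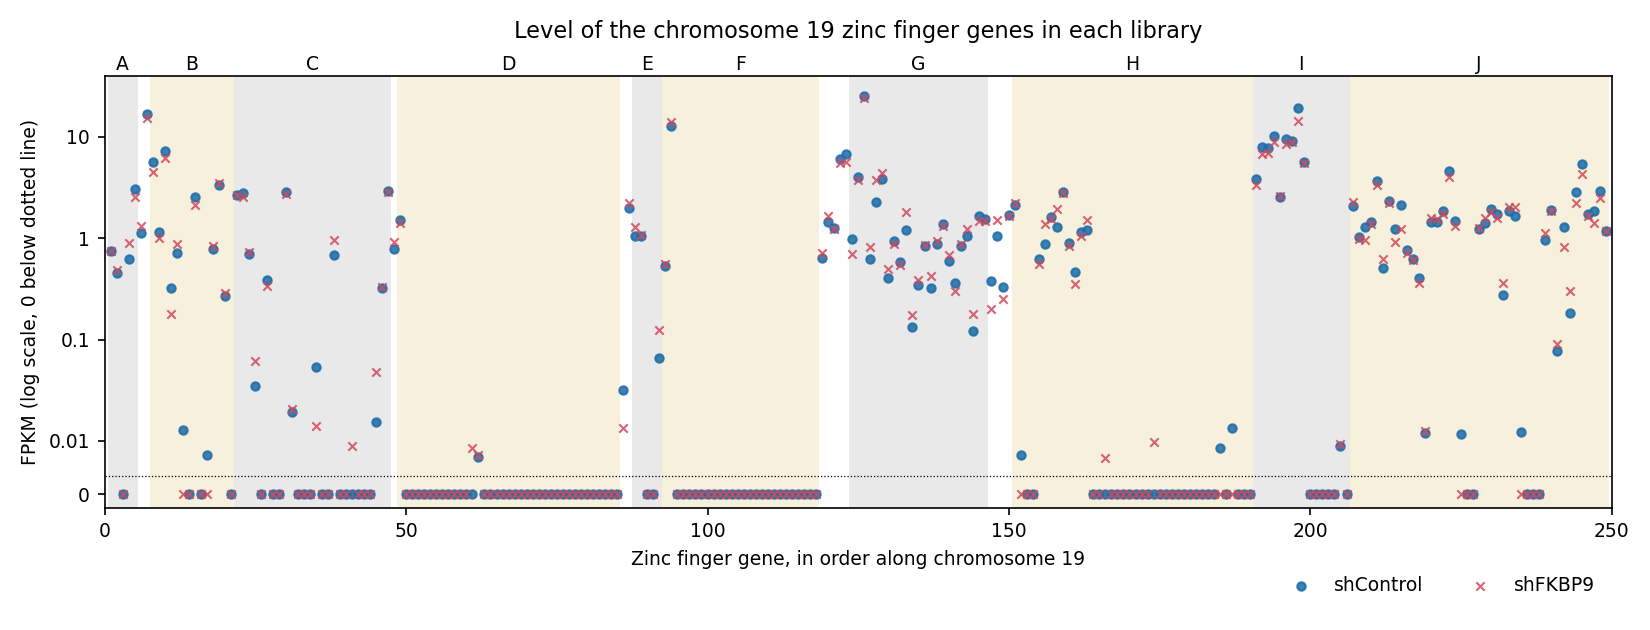
FPKM of each of the 249 zinc finger genes (log scale, with 0 drawn below the dotted line) against its rank along chromosome 19, for shControl (circles) and shFKBP9 (crosses), with the 10 clusters A to J shaded. The silent genes form unbroken rows in D, F and H, all 23 genes of G lie above 0, and the symbols of both libraries nearly coincide over most of the chromosome.

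Cluster D, from ZNF101 to ZNF254 (chr19:19668796-24129961), held 37 members and was almost entirely silent. It had 34 members with 0 fragments in both libraries. Single fragments were found on ZNF430 (shFKBP9 alone) and on ZNF714 (1 per library). ZNF101, at its lower edge, was the only expressed gene of the cluster, with 178 and 160 fragments and a log2 ratio of -0.07. ZNF91 and ZNF93, repressors of SVA and LINE retroelements, lie here and were both at 0.

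Cluster F, from ZNF565 to ZNF573 (chr19:36182060-37817300), had a sharp edge. Its first members, ZNF565 and ZNF146, had 38 and 968 fragments in shControl and 38 and 993 in shFKBP9. These genes overlap on opposite strands, and the strand setting of the counting is not given in the sources used here, so the 38 fragments of ZNF565 may come from either gene. The next 24 members, from ZNF566 to ZNF573, had 0 fragments in both libraries. This was the longest unbroken run of silent members on the chromosome and covered 1.37 Mb.

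Of 31 other genes in that stretch, 29 had 0 fragments in both libraries. Only 4 of the 31 are protein-coding, of which 3 were at 0, and over all 58735 genes 53.2% were at 0. The exceptions were AC016582.2 (20 fragments against 16 in shFKBP9) and HKR1, itself a zinc finger gene (1 per library). Outside it, only protein-coding genes with fragments were looked up, so genes at 0 there were not counted. CAPNS1, 295 kb away on the lower side, had 7059 and 6709 fragments, and SIPA1L3, 89.9 kb away on the upper side, had 550 and 508. Some of the genes looked up outside it had few, namely COX7A1 on the lower side (4 and 16), and DPF1 (39 and 37) and SPINT2 (1 and 0) on the upper side.

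The second longest run counted 23 members from ZNF431 to ZNF254 in cluster D and covered 2.99 Mb. Of 112 other genes in it, most of them not protein-coding, 110 were at 0. RPSAP58, a pseudogene of a ribosomal protein gene, held 815 and 660 fragments in the shControl and shFKBP9 libraries. PCGF7P held 1 and 0. Reads of a processed pseudogene and of its parent gene are hard to separate, so the value of RPSAP58 is uncertain. The third run, from ZNF14 to ZNF85 in the same cluster, counted 11 members over 1.24 Mb. Where up to 3 fragments in the libraries together were allowed, a setting chosen after seeing the data, these runs joined into 1 run of 36 members from ZNF14 to ZNF254, which held 3 fragments in all.

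Cluster H, from ZNF175 to ZNF331 (chr19:51571298-53580269), was divided in its middle. Of its 40 members, 25 were silent, 5 had few fragments, 3 were low and 7 were expressed. The expressed genes lay at the lower end, from ZNF175 (286 and 283 fragments) to ZNF480 (105 and 125 fragments), and ZNF841 was the highest with 2.89 and 2.81 FPKM. Beyond ZNF480, the 27 members from ZNF610 to ZNF331 held 6 fragments in the libraries together. Within that stretch lay unbroken silent runs of 10 members (ZNF468 to ZNF677) and of 7 members (ZNF534 to ZNF600). ZNF331, an imprinted gene, and ZNF611, which binds SVA elements, were at 0.

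Cluster G, from ZNF575 to ZNF180 (chr19:43525497-44500524), was the reverse of D and F. All 23 members had fragments in both libraries, 9 were expressed and 14 were low. The fewest were found on ZNF223, with 8 and 10 fragments. ZNF428, the highest member of the whole family, lies here. ZNF224, a KRAB repressor known to act with WT1, had 107 and 105 fragments, or 0.832 and 0.861 FPKM.

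Cluster J, from ZNF264 to ZNF446 (chr19:57191500-58481230), was the largest, and most of its genes were active. Of 43 members, 28 were expressed, 7 low and 3 had few fragments. Its highest gene was ZNF584 with 5.41 and 4.26 FPKM. The 5 silent genes were ZNF154, ZNF671, ZNF256, ZNF606 and ZNF135. ZNF154 and ZNF671 are neighbours, and ZNF256, ZNF606 and ZNF135 follow each other without another member between them.

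Cluster I, from ZNF628 to ZNF835 (chr19:55476332-56671783), changed from active to silent at a single point. Its first 9 members, ZNF628 to ZNF444, were all expressed, with ZNF787 the highest. The 7 members after ZNF444 held 2 fragments in all, both on ZNF71. They include a run of 5 silent genes, ZNF582 to ZNF470. ZNF444 itself, the last active gene, had 742 and 687 fragments.

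The remaining clusters were mixed. In cluster C, from ZNF653 to ZNF791 (chr19:11483427-12640098), 13 of 26 members were silent and 4 expressed, with ZNF791 the highest at 2.89 FPKM in both libraries. In cluster B, from ZNF414 to ZNF846 (chr19:8509678-9793180), 3 of 14 were silent and 5 expressed, ZNF317 being the highest at 7.23 and 6.24 FPKM. Cluster A (ZNF554 to ZNF77) held 5 members, of which 1 was silent and 1 expressed (ZNF77, 3.06 and 2.56 FPKM). Cluster E (ZNF302 to ZNF792) held 5 members, of which 2 were silent and 2 expressed, ZNF302 with 1.04 and 1.28 FPKM and ZNF181.

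**Figure D2:**
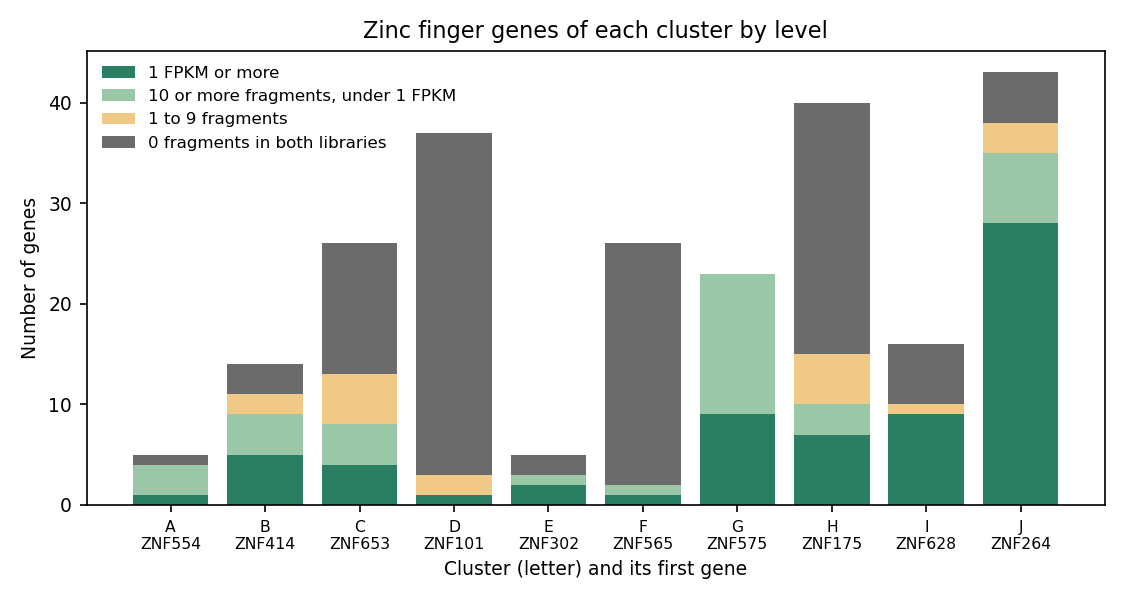
Number of zinc finger genes in each of the 10 clusters, stacked by level: 1 FPKM or more in either library, 10 or more fragments but under 1 FPKM, 1 to 9 fragments, and 0 fragments in both libraries. D and F are nearly all in the last class (34 of 37 and 24 of 26 genes), G has none in it, and J has 28 of 43 genes at 1 FPKM or more.

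Silent genes thus sat next to each other. There were 17 runs of 2 or more silent members, 6 of them with 5 or more, and these 6 held 80 of the 113 silent genes. Only 7 silent members had no silent member beside them. Among 229 pairs of neighbours within a cluster, 89 pairs were silent in both genes, 97 pairs had fragments on both genes, and 43 pairs were mixed. The runs were singled out after the values were seen and are given as a description.

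The promoters of the silent runs were not alike. RefSeq windows of 250 bases before the start were matched by symbol for 217 of the 249 members. Of these windows 184 lay within 1 kb of the gene start in the deposited table, the others further away, and 119 met an exon of a protein-coding gene. They contained a median of 17 CG dinucleotides in the 70 expressed members matched and of 14 in the 96 silent ones, against 18 over 14896 protein-coding genes of the table. Silent members of cluster D had a median of 8 (26 genes, 3 to 13), whereas those of cluster F had 17.5 (22 genes, 10 to 27) and those of cluster H had 19 (20 genes, 11 to 26). With windows within 1 kb of the start alone, chosen after seeing the data, the medians were 8 (22 genes), 19 (18 genes) and 19 (17 genes). Expressed members of cluster J had 16 (25 genes, 8 to 29). Silent genes therefore occurred both with CG-poor windows, as in ZNF66, and with CG-rich windows, as in ZNF567. At least 1 CG was present in 100% of the members' windows and in 96.9% of all windows of this length, and these are counts of letters only.

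Between the libraries, no member passed 2-fold, which is near the share of protein-coding genes in general. Of the 76 expressed members, 0 were more than 2-fold higher and 0 more than 2-fold lower in shFKBP9, where 2.02% of all 12741 expressed genes were past 2-fold higher and 2.19% past 2-fold lower. Most genes past 2-fold were not protein-coding, and of the 10346 expressed protein-coding genes 0.213% were past 2-fold higher and 0.193% lower. The expressed ZNF genes of other chromosomes, 151 in number, also had 0 past 2-fold on either side. The median log2 ratio of the 76 was -0.06, with an interquartile range of -0.17 to 0.10, and single genes ranged from -0.72 to 0.70. The ratio was above 0 for 27 members and below 0 for 49 (64.5%). Below 0 lay 53.3% of all expressed genes, 57.6% of the expressed ZNF genes of other chromosomes and 75.5% of the other expressed protein-coding genes of chromosome 19. The medians were -0.06 for expressed ZNF genes of other chromosomes, -0.10 for other expressed protein-coding genes of chromosome 19, and -0.02 for all expressed genes. The expressed members past 2-fold were as few under each of the alternative scalings and additions tried.

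Few members had fragments in 1 library alone. Of the 249 members, 132 had a fragment in shControl and 129 in shFKBP9, and the members with fragments in 1 library alone had at most 3 there.

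Counting error alone left few differences to describe. Among 117 members with 10 or more fragments in the libraries together, the interval of the ratio lay above 0 for 6 and below 0 for 11. Over the 17105 genes of the table with as many fragments, 13.8% lay above 0 and 16.9% below. The members' shares were 5.13% above and 9.40% below. Among ZNF genes of other chromosomes they were 10.2% and 19.4%, and among the other protein-coding genes of chromosome 19 they were 6.74% and 35.1%. These shares were not matched for fragment number, and their differences were not tested. The fragment number sets the width of an interval. Such an interval compares these libraries, not the conditions.

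The largest ratio belonged to ZNF404 in cluster G, a C2H2 zinc finger gene. It had 101 fragments in shControl and 158 in shFKBP9, or 2.25 and 3.71 FPKM, a log2 ratio of 0.70 (95% interval 0.35 to 1.10). Its neighbours ZNF283 and ZNF45, looked at after the values were seen, had 82 and 308 fragments in shControl and 101 and 333 in shFKBP9. The 2 transcripts that overlap ZNF404 held 15 fragments each in shControl, and 21 and 23 in shFKBP9.

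ZNF615 and ZNF432, both in the active end of cluster H, were also higher in shFKBP9. ZNF615 had 78 and 115 fragments, or 0.880 and 1.37 FPKM, and a log2 ratio of 0.58 (0.21 to 1.07). ZNF432 had 139 and 198 fragments, or 1.28 and 1.93 FPKM, and a ratio of 0.55 (0.27 to 0.91). ZNF614, which lies between them, had 170 and 155 fragments and did not share this direction. ZNF432 overlaps ZNF841 on the same strand, and ZNF841 had 224 and 207 fragments.

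ZNF541, a gene known from meiotic germ cells, had 89 fragments in shControl and 122 in shFKBP9, with a ratio of 0.49 (0.13 to 0.94). ZNF222 in cluster G had 44 and 63 fragments and a ratio of 0.56 (0.02 to 1.18), and ZNF136 in cluster C had 67 and 89 and a ratio of 0.43 (0.01 to 0.97), so that both intervals nearly reached 0. Among expressed members with at least 50 fragments, the next largest ratios had intervals that include 0. They were 0.31 in ZNF480, 0.28 in ZNF302 and 0.26 in ZNF417.

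ZNF749 in cluster J had the lowest ratio. Its fragments were 115 in shControl and 64 in shFKBP9, or 2.11 and 1.24 FPKM, and its log2 ratio was -0.72 (-1.23 to -0.32). ZNF17, the member before it, had 83 and 59 fragments and a ratio of -0.38 whose interval includes 0 (-0.92 to 0.08), and ZNF772, the member after it, had 84 and 74 fragments.

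ZNF8, also in cluster J, had 214 fragments in shControl and 127 in shFKBP9. This corresponds to 1.29 and 0.810 FPKM and a log2 ratio of -0.62 (-1.004 to -0.353). It overlaps AC020915.1 on the same strand, a locus with 20 and 9 fragments.

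ZNF787 in cluster I had by far the most fragments of these genes and hence the narrowest interval. Its 1286 fragments in shControl and 911 in shFKBP9 gave 19.3 and 14.5 FPKM and a log2 ratio of -0.42 (-0.54 to -0.30). In its cluster 8 of 9 expressed members had a ratio below 0 (75.5% of the other expressed protein-coding genes of the chromosome). The intervals of ZNF579 (479 and 390 fragments, -0.22) and ZNF865 (735 and 611 fragments, -0.19) also lay below 0, which makes 3 of 9, against 35.1% of those other genes with 10 or more fragments. The median ratio of these 9 genes was -0.17, against -0.10 for other expressed protein-coding genes of the chromosome.

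The other members whose interval lay below 0 were ZNF324B (-0.38), ZNF584 (-0.34), ZNF414 (-0.32), ZNF526 (-0.24), ZNF317 (-0.21) and ZNF134 (-0.21). The intervals of ZNF324B (-0.79 to -0.01) and ZNF134 (-0.418 to -0.005) nearly reached 0, and both included 0 after median scaling. ZNF584 had 362 fragments in shControl and 270 in shFKBP9, but overlaps AC012313.1, a non-coding gene on the opposite strand with 492 and 360, and reads of the pair cannot be told apart without strand. In 84.6% of the windows of ZNF324B the sequence occurs once in the genome, so that its 135 and 97 fragments are less certain. ZNF460 and ZNF837, with ratios of -0.39 and -0.34, had intervals that include 0.

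**Figure D3:**
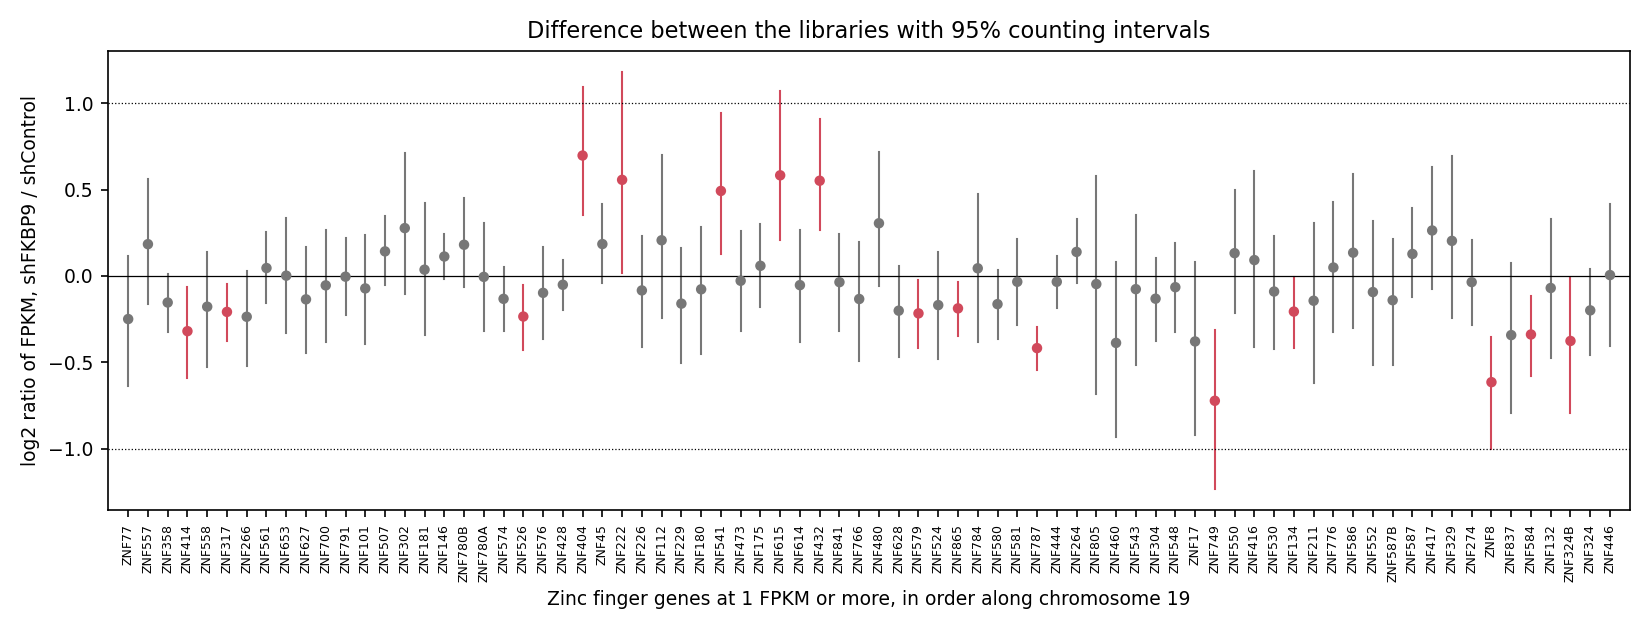
Log2 ratio between the libraries (shFKBP9 over shControl, 0.1 added to FPKM) for the zinc finger genes at 1 FPKM or more, in order along chromosome 19, with 95% counting intervals as bars and genes whose interval leaves out 0 in red. Every point lies between the dotted lines at a 2-fold difference, from -0.72 in ZNF749 to 0.70 in ZNF404.

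A short list, not complete, held 7 members known to repress or bind retroelements. Of these, 4 had 0 fragments in both libraries, namely ZNF91, ZNF93, ZNF611 and ZNF649, a share near the 45.4% of the whole family. ZNF765 had 3 in shControl and 0 in shFKBP9. The 2 that were expressed, ZNF587 and ZNF417, are near-identical genes known to bind HERV-K sequences. ZNF587 had 1.86 FPKM in shControl and 2.04 in shFKBP9 (247 and 257 fragments), and ZNF417 had 1.67 and 2.02 FPKM (127 and 146 fragments). Reads may be split between them, since 86.8% of the windows of ZNF587 and 80.7% of those of ZNF417 occur once in the genome.

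Of 10 members with another known role, 6 were expressed, where 30.5% of the family and 51.9% of all protein-coding genes were. The interval of 1 of the 8 with enough fragments lay below 0 (ZNF8), where 9.40% of the family's intervals did. ZNF274, which recruits SETDB1 to zinc finger genes themselves, had 1.92 and 1.87 FPKM (289 and 267 fragments). ZNF473, a component of histone pre-mRNA processing, had 1.69 and 1.66 FPKM. ZNF304, a transcriptional repressor, had 3.68 and 3.35 FPKM, and ZNF444 had 5.66 and 5.53 FPKM. ZNF350, a partner of BRCA1, had 51 and 43 fragments, and ZNF536, a regulator of neuronal differentiation, had 5 and 2.

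Of a short list of 10 members that are known from carcinomas with methylated promoters, which was drawn up with earlier results of these data known, 9 had 0 fragments in both libraries. These were ZNF135, ZNF154, ZNF177, ZNF382, ZNF471, ZNF582, ZNF667, ZNF671 and ZNF677, and they lie in clusters B, F, H, I and J. ZNF132 was the exception, with 111 and 100 fragments or 1.74 and 1.65 FPKM. In the family 45.4% and among all protein-coding genes 22.8% were at 0. The list is no independent evidence on the family, and methylation was not measured in these cells.

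The partners through which KRAB proteins act were all expressed, where 51.9% of all protein-coding genes were. The 23 corepressor genes examined lay between 1.86 and 114 FPKM, and 0 of them passed 2-fold. Of all expressed protein-coding genes, 0.213% were past 2-fold higher and 0.193% lower. Their median log2 ratio was -0.03. The intervals lay above 0 for 6, below 0 for 6 and included 0 for 11 of the 23, and the ratios ranged from -0.39 to 0.39. Over all protein-coding genes with 10 or more fragments, 16.7% of intervals lay above 0 and 20.3% below. These shares were not matched for fragment number, which sets the width of an interval. TRIM28, the scaffold, had 114 FPKM in shControl and 108 in shFKBP9 (-0.08, -0.13 to -0.04). SETDB1 had 4.27 and 3.97 FPKM (-0.10, -0.28 to 0.07), and its partner ATF7IP had 1.86 and 2.29 FPKM (0.29, 0.12 to 0.49).

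Other steps of this pathway went in both directions. Of the HP1 genes, CBX1 had 36.3 and 44.4 FPKM (0.29, 0.21 to 0.38), CBX3 a ratio of 0.19 and CBX5 one of 0.15. Of the HUSH complex, which silences retroelements, FAM208A (also named TASOR) had a ratio of -0.03 (-0.13 to 0.08), PPHLN1 one of -0.04 and MPHOSPH8 one of 0.25 (0.02 to 0.49), and MORC2, which acts with this complex, had one of -0.19 (-0.32 to -0.05). The chromatin remodeller SMARCAD1, which binds TRIM28, had 668 and 834 fragments (0.39, 0.25 to 0.55). The histone methyltransferases EHMT2 and EHMT1 had ratios of -0.39 (-0.49 to -0.29) and -0.36 (-0.50 to -0.24), and DNMT1, which maintains DNA methylation, had one of -0.23 (-0.29 to -0.18). UHRF1, which guides DNMT1, had one of -0.06 (-0.119 to -0.001). The interval of UHRF1 nearly reached 0 and included 0 after median scaling, while that of SUV39H2 (-0.016 to 0.624) then lay just above 0. No replicate exists to show how far such ratios vary between cultures of the same kind.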

How the data were processed

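RNA of the shControl and shFKBP9 cultures of SF-539 cells was measured by paired-end RNA-Seq, with 1 library per condition. Reads were filtered, aligned to hg38 with HISAT2 2.0.5 and counted per gene with featureCounts 1.5.0-p3 by the authors, who used edgeR for their own differential analysis. The authors deposited FPKM with gene positions and lengths. No annotation release was given in the sources used here.

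Multiplied by gene length, 100% of FPKM values were whole multiples of 1 step in each library (tolerance 0.001), which gave fragments. A fragment on a gene of 1 kb was worth 0.0552 FPKM in shControl and 0.0582 FPKM in shFKBP9. Log2 ratios used FPKM plus 0.1. Exact Clopper-Pearson intervals (95%) were computed for genes with at least 10 fragments, and silence was limited by 3 fragments. Reads amplified by PCR are not independent molecules, so intervals and limits cover counting error only. With 1 library per condition there was no test.

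Genes named were FKBP9, the highest member of each cluster, the 8 largest and 8 smallest ratios among expressed members with at least 50 fragments, the genes of 4 lists (retroelement repressors, other known roles, methylated in tumours, KRAB corepressors), cell type markers, and members beside a threshold. Other genes named (runs, flanks, neighbours, overlapping genes, members above 5 FPKM or with intervals off 0) were chosen after their values were seen. Members and lists were chosen with earlier results of these data known. All 249 members were found in GENCODE 44 on the same strand at an overlapping place.

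Alternatives were 1 or 0.01 added to FPKM, median scaling, TPM, other minimums, other gaps between clusters, and leaving out readthrough genes. The recovery of fragments, the ratios and the intervals were tested on simulated data. Calculations used matplotlib 3.10.9, scipy 1.17.1, pandas 2.3.3 and numpy 2.4.6 under Python 3.11.15.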

Additional observations from a re-analysis of the deposited data

How the results depend on the processing

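Among expressed members, the absence of any past 2-fold held under every addition and scaling tried, and with 1 FPKM required in both libraries. Leaving out the minimum was tried with 0.1 added alone, where silent members and those with 1 to 8 fragments cannot reach 2-fold. With 0.01 added, ZNF765 (3 fragments in shControl and 0 in shFKBP9) had a log2 ratio of -1.23. The median log2 ratio of expressed members stayed between -0.08 and -0.04, except without a minimum, where it was 0 because the 113 silent genes enter with a ratio of 0. The number of expressed members was 98 at 0.5 FPKM, 39 at 2 FPKM and 113 after rescaling to TPM, against 76. FKBP9 had a ratio of -3.16 with 1 added. With up to 3 fragments allowed, 127 members counted as silent and the longest run grew from 24 to 36. Over 62 other genes (members and corepressors with fragments) and the alternatives, 247 values stayed within their intervals and 1 moved outside, ZNF8 with 1 added (-0.34). Median scaling shifted all ratios by 0.02 and gave 7 members above and 9 below 0. With 250 kb or 1000 kb between clusters there were 12 or 9 clusters of 5 or more members.

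Depth limits what 0 means, the limit reaching 0.140 FPKM in shFKBP9. No paired analysis was possible because each condition has 1 library. Leaving out a library was not possible for the same reason. Culture, clone and hairpin cannot be told apart.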
